A study of Mus musculus with 472 samples.

Results

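The comparison is between 2 kinds of single-cell RNA library from posterior leptomeninges of mice titled 18 months old: 67 wells whose column names end in fulllength and 39 wells whose names end in 3prime. The wells were chosen by those names, by a minimum over genes of 0 and by at least 500 genes counted. The series holds 472 wells in all.

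The series sampled meninges over the anterior and posterior cortex of male C57BL/6 mice (C57B6 in the design text) aged 3 or 18 months, with single cells dispensed by the ICELL8 nanowell system. Each age was 1 pool of 6 mice, so each of both library sets is 1 sample and a well is not a replicate. No treatment or transgene is named in the labels. The full-length wells carry position titles in blocks 1 (35 wells) and 2 (32 wells), and the 3-prime wells carry barcode titles. For 30 of the 67 full-length wells the age field says 3 months where the title says 18 months; wells were grouped by title. With 1 sample a set, no difference below has a replicate check, no p-value was computed, and every interval is an exact 95% interval that covers counting error only. The counts carry no molecular identifiers, so PCR copies of 1 molecule are not independent.

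The leptomeninges are the thin inner coverings of the brain, made of arachnoid barrier cells, pial and arachnoid fibroblasts, blood vessels with their mural cells, and resident macrophages. Their fibroblasts and arachnoid cells secrete cerebrospinal fluid proteins such as prostaglandin D2 synthase, build matrix, and release retinoic acid and other signals to the brain below. A 3-prime protocol primes on the poly(A) tail and counts reads near the transcript's end, and a full-length protocol spreads reads along the transcript. RNAs without a poly(A) tail and stretches of A inside a transcript are known points where such protocols differ.

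The sequences that mark both ends of the comparison come from the GENCODE M21 transcripts, with coordinates in GRCm38 (mm10). The first 3 belong to predicted genes of the satellite-like list, a set of 14 predicted genes built on pericentromeric repeat sequence. They are shown because genes of this list took most counts of the full-length wells, and capitals mark the longest run shared by all 3, of 43 bases. Gm10800 (chr2:98666547-98667301, minus strand) is shown over the stretch of its annotated coding transcript that holds this run, and so are Gm21738 (chr14:19415857-19418930, minus strand) and Gm10722 (chr9:3000922-3002330, plus strand).
Gm10800: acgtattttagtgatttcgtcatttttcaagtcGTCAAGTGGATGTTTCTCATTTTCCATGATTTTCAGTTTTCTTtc
Gm21738: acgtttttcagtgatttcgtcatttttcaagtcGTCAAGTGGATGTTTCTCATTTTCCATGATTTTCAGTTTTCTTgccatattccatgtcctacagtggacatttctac
Gm10722: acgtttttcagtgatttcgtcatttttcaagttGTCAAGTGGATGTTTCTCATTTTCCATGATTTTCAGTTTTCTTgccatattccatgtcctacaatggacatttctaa

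The next set are 57-base genes annotated as miRNA that led the small noncoding class of the full-length wells, at chr16:11144125-11144181 (plus strand), chr9:56223715-56223771 (minus strand) and chr13:9834469-9834525 (minus strand). Gm23935 and Gm24270 have the same sequence, and Gm24187 differs by G11A, counted from 1 at the 5′ end of Gm23935, with the differing base in capitals.
Gm23935: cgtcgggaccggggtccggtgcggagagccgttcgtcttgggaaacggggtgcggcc
Gm24270: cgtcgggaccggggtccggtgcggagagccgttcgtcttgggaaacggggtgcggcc
Gm24187: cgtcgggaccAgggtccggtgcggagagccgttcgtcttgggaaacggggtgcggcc

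The last set shows transcripts on opposite sides of the comparison, with a run of A in the annotated Malat1 transcript. The place of that run relative to the processed end of Malat1 was not examined. The Malat1 stretch (chr19:5795948-5796039, minus strand, bases 6634 to 6725 of 6983) holds its longest run of A, 12 bases in capitals. The final 60 bases of the mitochondrial light-strand mRNA mt-Nd6 (chrM:13552-13611, minus strand) and of the large mitochondrial rRNA mt-Rnr2 (chrM:2616-2675, plus strand) are also given.
Malat1: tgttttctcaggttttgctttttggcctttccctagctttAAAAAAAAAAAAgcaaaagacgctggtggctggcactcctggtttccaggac
mt-Nd6: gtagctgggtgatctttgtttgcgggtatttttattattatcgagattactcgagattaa
mt-Rnr2: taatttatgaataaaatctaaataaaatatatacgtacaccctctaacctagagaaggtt

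The kept full-length wells summed to 2319406 counts and the kept 3-prime wells to 2579478. A full-length well held between 1221 and 175189 counts (median 19338), and a 3-prime well between 8630 and 279516 (median 39283). Counts of nuclear genes outside the satellite-like list had a median of 7014 and 27307 a well. Numbers of wells with a count of a gene are therefore not at equal depth, unless said to be thinned. Counts sat in few wells: 7 full-length wells with over 100000 counts held 39.7% of that set, and 9 such 3-prime wells held 57.2%. Of the columns titled for these sets, 1 full-length column with a constant shift was dropped, and 45 full-length and 14 3-prime wells had fewer than 500 genes. No barcode occurred in more than 1 3-prime library, and no kept columns were identical.

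Satellite-like genes made up 65.7% of full-length counts (interval 65.7 to 65.8) and 0.00147% of 3-prime counts (0.00104 to 0.00202). The lowest full-length well had 0.683%, the median 59.0% and the highest 89.7%, and no full-length well was as low as the highest 3-prime well, at 0.359%. Gm10800 alone took 927231 full-length counts, 40.0% of the set, and 0 counts in the 3-prime wells, where 0 counts allow a share of up to 0.000143%. Gm21738 followed with 133681 full-length counts and 0 in the 3-prime wells. Gm26870 (chromosome 9, 3000282 to 3038313) had 128394 full-length counts, and its 38 counts in 4 wells were the only satellite-like counts of the 3-prime set. Of the 20-base words in the listed transcripts, between 53.3% (Gm10801) and 96.2% (Gm10720) also occur in another listed gene, apart from Gm10714 with 0%, so the split of counts among these genes is uncertain. Title block 1 of the full-length set held 57.1% satellite-like counts and block 2 held 71.2%. The same contrast at 3 months gave 66.2% satellite-like counts in the full-length wells of posterior meninges and 64.4% in those of anterior meninges.

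**Figure D1:**
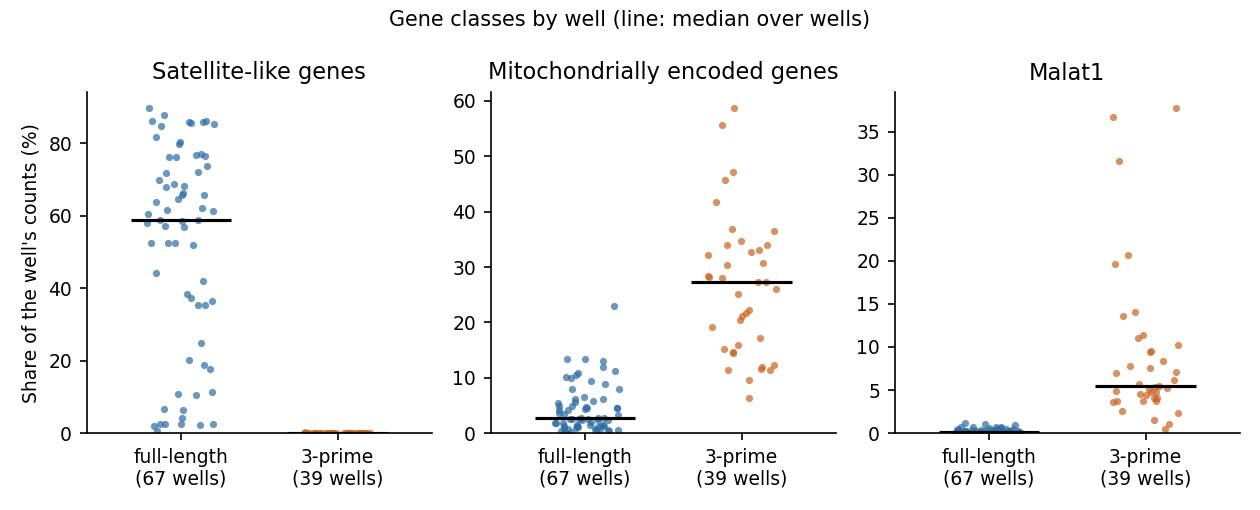
Share of each well's counts (percent, y axis) in satellite-like genes, mitochondrially encoded genes and Malat1, for 67 full-length wells (blue) and 39 3-prime wells (orange); each point is a well and the line the median. The satellite-like share spans 0.683% to 89.7% in full-length wells, while the mitochondrial and Malat1 medians are higher in 3-prime wells (27.2% against 2.76%, and 5.50% against 0.127%).

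Mitochondrially encoded genes made up 25.3% of 3-prime counts and 3.16% of full-length counts. The 3-prime wells ranged from 6.37% to 58.7% (median 27.2%) and the full-length wells from 0.219% to 23.1% (median 2.76%); 15 full-length wells lay above the lowest 3-prime well and 0 above the 3-prime median. Satellite-like counts enter the denominator of every other share, so the comparison was also made against nuclear genes outside that list, which made up 31.1% of full-length counts and 74.7% of 3-prime counts. On that scale there were 33.9 mitochondrial counts per 100 nuclear counts in the 3-prime set and 10.2 in the full-length set, a ratio of 3.34. The large rRNA mt-Rnr2 (chromosome M, 1094 to 2675), the RNA of the large mitochondrial ribosomal subunit, took 9.17% of 3-prime counts and 0.525% of full-length counts, 17.5 times higher. The small-subunit rRNA mt-Rnr1 took 3.56% and 0.260%, 13.7 times higher. Together these rRNAs were 50.3% of mitochondrial counts in the 3-prime set and 24.8% in the full-length set.

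The 13 mitochondrial mRNAs, which encode subunits of the respiratory chain and ATP synthase, had a median ratio of 4.63 in favour of the 3-prime set by share of all counts. The ratio was 12.6 for mt-Atp8, an ATP synthase subunit, 6.38 for mt-Co3, a cytochrome c oxidase subunit, and 3.10 for mt-Nd1, a complex I subunit. An exception was mt-Nd6 (chromosome M, 13552 to 14070), the complex I subunit that is the sole mRNA on the light strand and is known to lack a long poly(A) tail. It had 536 full-length counts in 45 wells and 92 3-prime counts in 3 wells, a 3-prime to full-length ratio of 0.154. Of the 15 mRNAs and rRNAs, 14 were higher in the 3-prime set by share of all counts and 13 per nuclear count; mt-Nd4l moved across 1 between these scales, with 1.76 and 0.733. The 22 mitochondrial tRNAs, short RNAs cut from the same long transcripts, made up 0.0966% of full-length and 0.0366% of 3-prime counts. Among them mt-Ts1 had 1610 full-length counts in 51 wells and 3 3-prime counts in 1 well, while mt-Td had 12 full-length counts in 4 wells and 501 3-prime counts in 33 wells. Mitochondrial genes abut or overlap by annotation, so reads of a tRNA and of its neighbour cannot be told apart here.

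**Figure D2:**
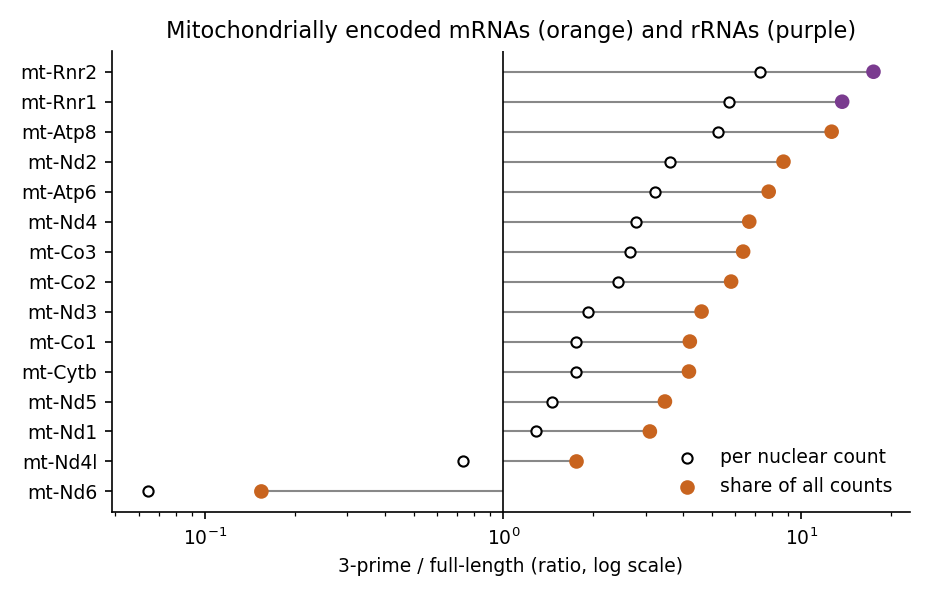
Ratio of 3-prime to full-length for the 13 mitochondrial mRNAs (orange) and 2 rRNAs (purple) on a log axis; filled points use the share of all counts and open points counts per nuclear count outside the satellite-like list, 1 sample a set. On the share of all counts 14 of the 15 lie above 1, from 1.76 for mt-Nd4l to 17.5 for mt-Rnr2, and mt-Nd6 lies at 0.154.

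Among the nuclear classes, long noncoding RNA made up 8.54% of 3-prime counts and 1.592% of full-length counts, and a single gene accounted for most of it. Malat1 (chromosome 19, 5795690 to 5802672), an abundant RNA kept in the nucleus whose end is processed without a poly(A) tail, had 207288 counts in all 39 3-prime wells, 8.04% of that set. It had 5089 counts in 60 of 67 full-length wells, 0.219%. The 3-prime wells ranged from 0.508% to 37.7% and the full-length wells from 0% to 1.122%; 9 full-length wells exceeded the lowest 3-prime well. As a share of nuclear counts the values were 10.8% and 0.705%. Neat1, the scaffold RNA of paraspeckles on the same chromosome, had 783 CPM in the 3-prime set and 320 CPM in the full-length set, where CPM is the usual scaling of counts to a common library size, here taken over nuclear counts outside the satellite-like list. Most other measured long noncoding genes lay on the opposite side. Of 1165 measured (at least 10 CPM in either set), 1062 were at least 4-fold higher in the full-length set and 35 in the 3-prime set. The shares over all measured genes were 55.9% and 9.17%. Of 4185 long noncoding genes, 2385 had a full-length and 220 a 3-prime count. A gene that was measured with 0 3-prime counts passes 4-fold by construction, so for such genes the filter fixed the direction. Gm17494 (730.6 CPM in 33 wells) and Gm26825 (410.3 CPM in 27 wells) led those with 0 3-prime counts, and Gm17494 shares its span with genes of the other strand, Gclm among them. Meg3, Rian and Mirg, which lie in 1 imprinted domain of chromosome 12, had 106.7, 97.04 and 16.6 CPM in the full-length set and 0 counts in the 3-prime set.

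Small noncoding RNA made up 0.900% of full-length counts and 0.202% of 3-prime counts, 10.7 times higher as a share of nuclear counts. The 57-base gene Gm23935 had 5507 counts in 66 full-length wells and 30 counts in 5 3-prime wells. Gm24270 had 1991 and 13 counts, and Gm24187 had 1392 and 13 counts; since these sequences differ by at most 1 base, the split among them is uncertain. The 7SL RNA genes Rn7s1 and Rn7s2, which encode the RNA of the signal recognition particle and are made by RNA polymerase III without a poly(A) tail, are identical over their 300 bases. They had 2418 and 2410 counts in 62 full-length wells and 82 counts each in 5 3-prime wells. Their log2 ratios of full-length over 3-prime, with 1 CPM added here and below, were 6.27 (5.98 to 6.63) and 6.26 (5.98 to 6.63). Of the 6 measured members of the fixed list of RNA polymerase III and small structural RNAs, 4 were at least 4-fold higher in the full-length set and 1, Vaultrc5, in the 3-prime set, beside 55.9% and 9.17% of all measured genes. Rn7sk, the RNA of the 7SK particle, had a log2 ratio of -1.10 here and of 3.12 and 4.17 in the posterior and anterior 3-month sets.

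Other classes split both ways. Ribosomal protein mRNAs, short and highly transcribed, made up 2.38% of 3-prime and 0.516% of full-length counts, and 3.18% and 1.658% of nuclear counts; 12 of 81 measured were at least 4-fold higher in the 3-prime set and 1 in the full-length set. Replication-dependent histone genes, whose main transcripts end in a stem-loop and not a poly(A) tail, made up 0.0586% and 0.0135%, with 7 of 23 measured past 4-fold in the 3-prime set and 8 in the full-length set. Over all measured genes these shares were 9.17% and 55.9%. Olfactory and vomeronasal receptor genes, known mainly from sensory neurons of the nose, had counts for 642 of 1334 genes in the full-length wells, 6607 counts in all. In the 3-prime wells 1 of these genes had counts, 5 in all. Of the receptor genes 48.1% had a full-length count, below the 71.2% of protein coding genes with 0 3-prime counts. The 7 deepest full-length wells held 46.7% of the full-length receptor counts. Lars2 (chromosome 9, 123366927 to 123462666), a mitochondrial leucyl-tRNA synthetase gene placed in the list of genes that overlap rRNA sequence, had 24486 CPM in all 67 full-length wells and 111.6 CPM in 6 3-prime wells. Gm42418 (chromosome 17, 39846958 to 39848788), the other main member of that list, went the opposite way, with 5355 CPM in 66 full-length wells and 19324 CPM in all 39 3-prime wells.

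Over all nuclear genes, 16802 were measured at 10 CPM or more in either set. Of these, 9397 (55.9%) were at least 4-fold higher in the full-length set and 1541 (9.17%) in the 3-prime set, with a median log2 ratio of 3.04. That median rests on genes near the counting limit: 7195 measured genes (42.8%) had 0 counts in the 3-prime set and 1.73% had 0 in the full-length set. Among 6499 genes with at least 50 CPM in either set, 32.5% were at least 4-fold higher in the full-length set and 16.3% in the 3-prime set. Among 6199 genes with at least 10 CPM in both, the shares were 6.74% and 11.5% and the median was -0.25. The choice of denominator also bears on every ratio: scaled to all counts, each log2 ratio moves by -1.26, and 3043 genes were then at least 4-fold higher in the full-length set and 3115 in the 3-prime set.

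By transcript length, longer genes were counted more often in both sets. Among protein coding genes measured in either set, 58% of those under 0.5 kb of exon and 28.2% of those of 8 kb or more had 0 counts in the 3-prime set, and 12% and 0.513% in the full-length set. The median log2 ratio of these genes was 3.596 in the shortest and 1.662 in the longest bin. Of 11858 protein coding genes with 0 counts in the 3-prime wells, 8442 (71.2%) had at least 1 full-length count. That share was 24.2% for genes under 0.5 kb of exon, 60.5% at 1 to 2 kb and 92.5% at 8 kb or more, and the median full-length count went from 0 to 20. Since these genes were picked for 0 3-prime counts, only the full-length set could show counts here. Among genes at 10 CPM or more in the 3-prime set the share counted in the full-length set was also higher for longer genes, from 66.7% to 99.1%. The genes with 0 3-prime counts together held 137048 full-length counts, 19.0% of the nuclear counts of the full-length set. Of these counts 32.7% lay in the 7 deepest wells. Without those wells the share of these genes with a count was 20.2% and 89.1% in the shortest and longest bins. Per kb of exon the order among these genes was the reverse, with 6.82 full-length counts per kb under 0.5 kb and 2.337 at 8 kb or more. Among genes at 10 CPM or more in both sets, the median log2 ratio stayed between -0.54 and -0.18 in all 6 bins. Across those 5581 protein coding genes Spearman's rho between exon length and the log2 ratio was 0.039. This is a correlation across genes of 2 samples, given as a description.

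**Figure D3:**
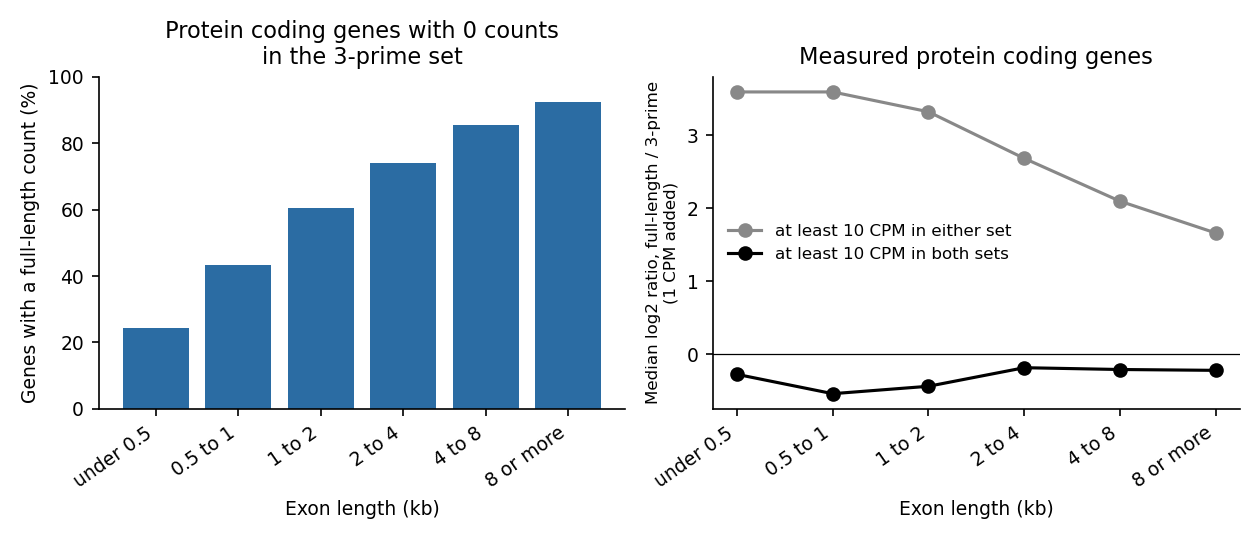
Left, the percentage of protein coding genes with 0 counts in the 3-prime wells that had a full-length count, by exon length in kb (union of exons); right, the median log2 ratio of full-length over 3-prime by the same bins for genes measured in either set (grey) or in both (black). The bars go from 24.2% to 92.5%, the grey line from 3.596 to 1.662, and the black line stays between -0.54 and -0.18.

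Exon number, GC content and A runs were also compared. Among genes measured in either set, those with 1 exon had a median log2 ratio of 3.89 and genes with more exons 2.194 (13230 genes). At 0.5 to 1 kb the medians were 4.35 and 1.137, and at 4 to 8 kb 1.86 and 2.1001. Over 5 groups of equal size by GC content the medians ran between 1.83 and 2.6296. Genes could enter these exon and GC splits through the full-length set alone. At 10 CPM or more in both sets (5581 genes), Spearman's rho with the log2 ratio was 0.054 for exon number. For GC content it was 0.077. Among protein coding genes at 10 CPM or more in both sets, those with a run of at least 10 A in the longest transcript had a median of -0.46 (1285 genes) and the others -0.16 (4296 genes), and at 8 kb or more the medians were -0.48 and 0.0018. The order was the reverse at 0.5 to 1 kb, with 0.51 over 9 genes with such a run and -0.65 over the others. The polyadenylation hexamer AATAAA, searched on the transcript strand in the last 50 bases of the longest transcript, occurred in 56.8% of all 21226 protein coding genes. At 50 CPM or more it occurred in 58.8% of genes at least 4-fold higher in the full-length set, 65.0% of those higher in the 3-prime set and 61.3% of those between. The A-run and hexamer splits were chosen after seeing the data.

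At equal depth the number of genes per well depended on what was equalised. Wells were themselves chosen by gene number, at least 500, which removed 45 full-length and 14 3-prime wells. The medians therefore describe the kept wells only. Which library kind counts more genes per well cannot be read from them. Thinned to 4500 counts, the median well had 657.5 genes in the full-length set (296.02 to 1407, 62 wells, 5 shallower wells left out) and 671.4 in the 3-prime set (369.5 to 1223, 39 wells), each well taken at the mean over all thinnings without replacement. Thinned to 1500 nuclear counts outside the satellite-like list, the medians were 653.9 (66 wells, 1 left out) and 510.03 (39 wells). Unthinned, the medians were 1038 and 1027 genes. The 3-month sets gave 669.9 and 498.7 genes in posterior meninges and 564.1 and 527.3 in anterior meninges at 1500 nuclear counts.

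The genes named as higher in the full-length set met a fixed rule: at least 50 CPM, counted in at least 25% and at least 5 wells of that set, no well with over 50% of the counts, and at least 4-fold in both the summed and the mean per-well CPM, in the same direction in both title blocks. The rule was met by 49 genes, 22 of them after predicted, pseudogene, ribosomal protein and unnamed genes were set aside, and the 12 with the highest ratio include Lars2, Rn7s1 and Rn7s2. Duxf3 (chromosome 10, 58229979 to 58232675), a copy of the repeated Dux homeobox gene, had 956.5 CPM (690 counts) in 20 full-length wells and 0 in the 3-prime wells, at least 614-fold higher against a floor of 3 counts in the 3-prime set. Its neighbour AW822073 (58222972 to 58224930) had 310.5 CPM in 17 wells and 0 counts, at least 199.4-fold higher. Dux genes lie in repeated copies, so how their reads were split among copies is uncertain. The giant sarcomere gene Ttn (chromosome 2, 76703980 to 76982547; 116825 bases of exon) had 447.8 CPM in 20 wells against 0 counts, at least 287.5-fold higher, and ranked 10932 per kb among protein coding genes of the full-length set. Ryr3, an intracellular calcium channel, had 123.4 CPM in 17 wells and Syn3, a synaptic vesicle phosphoprotein, 173.3 CPM in 19 wells, both with 0 in the 3-prime wells. Mroh2a (263.4 CPM in 21 wells), Fam221b (194.1 CPM in 28) and Wdr38 (185.8 CPM in 18) also had 0 3-prime counts. Sp110, a nuclear body protein, had 253.7 CPM in 22 wells and 6 counts (3.11 CPM) in 2 3-prime wells. Of these, Fam221b shares its span with Tmem8b, Wdr38 with Arpc5l and Rpl35, Syn3 with Timp3 and Ryr3 with Aven. A strand setting for the counting is not given in the sources used here, so reads of such pairs cannot be told apart.

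The same rule for the 3-prime set left 89 genes after the exclusions. Among the 12 with the lowest ratio, the transcription factor Jun (chromosome 4, 95049034 to 95052222) had 1445 counts in 23 of 39 3-prime wells and 26 in 10 of 67 full-length wells, a log2 ratio of -4.34 (-4.999 to -3.82). Klf2, a Kruppel-like factor of vessels and immune cells on chromosome 8, had 2059 counts in 18 wells and 43 in 10 wells, -4.14 (-4.64 to -3.73). Btg2, an antiproliferative early gene on chromosome 1, had 2490 CPM in 28 wells and 156.7 CPM in 13 wells, -3.98 (-4.27 to -3.72). Fosl2, a partner of Jun, had 856 and 7 counts, and Errfi1, a feedback inhibitor of the EGF receptor, 1773 and 27. Rgs4, a regulator that speeds the switching off of G proteins, had 1153 counts in 10 3-prime wells and 3 counts in 1 full-length well, -6.86 (-9.45 to -5.62), and Rgs7bp, a binding protein of the RGS family, had 956 counts in 18 wells and 9 in 4. The Y-linked helicase Ddx3y had 209.7 CPM in 11 wells and 4 counts (5.55 CPM) in 1 well, in pools labelled male. The other 4 were the septin Sept8 (220.6 CPM and 5.55 CPM), the membrane protein Cd47, which restrains phagocytosis (867 counts and 17, 94.1% of the latter in 1 well), the lactate dehydrogenase subunit Ldhb (616 and 13) and the complex III core protein Uqcrc1 (84.6 CPM and 4.16 CPM).

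The 3-month libraries hold the same pair of chemistries and were not used to choose these genes. Of the 49 genes higher in the full-length set, 42 were at least 4-fold higher there in posterior meninges at 3 months, 85.7% against 66.3% of all genes measured there, and 42 of the 48 measured in anterior meninges, 87.5% against 61%. Of the genes that met the rule in the 3-prime direction, 73 (50.0%) were at least 4-fold higher in the posterior 3-month 3-prime wells, where 9.18% of all measured genes were. In anterior meninges it was 77 (54.6% of those measured) against 18.4%. The genes of the rule had at least 50 CPM at 18 months, while these all-gene shares cover genes at 10 CPM or more. At 18 months, raising that level to 50 CPM moved the all-gene shares from 55.9% and 9.17% to 32.5% and 16.3%. Shares at 50 CPM were not computed at 3 months. Jun had log2 ratios of -3.12 and -1.37 and Btg2 of -2.27 and -4.59 in the posterior and anterior 3-month sets. Of the 12 genes named above, 10 had a ratio below 0 in posterior and 9 in anterior meninges at 3 months. Cd47 lay above 0 in both, with 1.232 and 2.513. Errfi1 had -2.89 in posterior and 2.292 in anterior meninges, Fosl2 -3.26 and 0.55, and Ldhb 0.80 and -5.27. The Ldhb ratios rest on 10 full-length and 9 3-prime counts in posterior and on 0 and 31 in anterior meninges. Rgs4, Sept8 and Ddx3y were close to 0 in anterior meninges, with -0.28, -0.41 and -0.22.

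Immediate early genes, the transcription factors and regulators that cells induce within minutes of a stimulus or of tissue dissociation, were lower in the full-length set as a list. The 3-prime set was past 4-fold for 7 of the 17 measured genes and the full-length set for 0, where the shares over all measured genes were 9.17% and 55.9%. The median log2 ratio was -1.66 where all measured genes had 3.04, and 16 of the 17 lay below 0. Among the 16 with at least 50 CPM the median was -1.68, where all genes at that level had 0.22, and the same 4-fold counts of 7 and 0 stood against 16.3% and 32.5%. Their summed level was 17101 CPM in the 3-prime set and 3265 CPM in the full-length set. Fos (chromosome 12, 85473890 to 85477273) had 6504 CPM in 32 of 39 3-prime wells and 859.5 CPM in 25 of 67 full-length wells, and the nuclear receptor Nr4a1 360.8 and 34.7 CPM. The member with the highest ratio was Ier3, at 192.7 CPM in the full-length set and 163.01 CPM in the 3-prime set. The list medians at 3 months were -1.83 in posterior and -1.37 in anterior meninges. Chaperones that stress and dissociation induce had a median of -1.40 over 12 measured members, 2 past 4-fold in the 3-prime set and 0 in the full-length set, beside 9.17% and 55.9% of all measured genes: Hspe1, a mitochondrial co-chaperonin, with 208.7 and 20.8 CPM, and Hspa1a, which had 180.7 CPM in 5 3-prime wells (75.3% of them in 1 well) and 0 counts in the full-length wells. Hspd1, Hsph1, Hspa1b and Dnajb1 lay above 0, with log2 ratios of 1.25, 1.01, 1.07 and 0.43. Among the 10 chaperones with at least 50 CPM the median was -1.62. Of these, 2 passed 4-fold in the 3-prime set and 0 in the full-length set, where the all-gene shares were 16.3% and 32.5%. Scaled to all counts, 14 immediate early genes and 8 chaperones were past 4-fold in the 3-prime set, beside 29.8% of all measured genes.

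Marker levels of cell types also differed between the sets. The cells in the wells and the library kind cannot be told apart in these levels, and the part of the cells in the ratios was not tested. The 6 smooth muscle markers summed to 17192.5 CPM in the 3-prime set and 5742 CPM in the full-length set, with a count in 36 of 39 and 50 of 67 wells; contractile myosin Myh11 had 3535 and 688 CPM and actin Acta2 8026 and 2133 CPM, and desmin, Des, went the other way with a log2 ratio of 1.431 (1.138 to 1.743). The 9 endothelial markers summed to 945 and 2312 CPM, and the 8 macrophage markers to 3954 and 7315 CPM. Of the macrophage markers 4 lay above 0 and 4 below, with a median log2 ratio of -0.094. Erythrocyte markers summed to 3045 CPM in the 3-prime and 8361 CPM in the full-length set. They had a count in 30 of 39 3-prime and 26 of 67 full-length wells. Here and for smooth muscle, wells with a count were not compared at equal depth. The highest full-length well had 722983 CPM of them and the highest 3-prime well 39635 CPM. Granulocyte markers summed to 2128 CPM, all in 1 3-prime well, and 23.6 CPM. Neuron markers summed to 18.2 and 164.97 CPM and oligodendrocyte markers to 4.67 and 238.4 CPM. The tissue's own arachnoid barrier markers summed to 6609 and 15977 CPM, of which Ptgds was all but a small part, and the 7 fibroblast markers to 700 and 794 CPM. In summed counts, fewer cells of a type, less RNA per cell and lower capture by the library kind cannot be told apart.

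Genes that ranked high in both sets were sought among 21201 protein coding genes, ranked by counts per kb of exon in the full-length set and by CPM in the 3-prime set. The top 300 lists shared 40.3% of their genes (0.571% of those ranked), 23 for ribosomal proteins and 98 others. Among the 15 with the best worse rank, ribosomal proteins aside, were Ptgds, Ubb, Tmsb4x, Actb, Cst3, Acta2, Myl9, Apoe, Fth1, Tyrobp, B2m, Lyz2, Mgp and the predicted gene Gm2000. They comprise the ubiquitin gene Ubb, cytoskeletal genes (Actb, the actin-binding thymosin Tmsb4x, and the smooth muscle genes Acta2 and Myl9), secreted proteins (Ptgds, the protease inhibitor Cst3, Apoe, Mgp), the ferritin heavy chain Fth1 and immune genes (B2m, Lyz2 and Tyrobp). Several lay close on the CPM scale: Cst3 had 2517 CPM in the full-length and 2480 CPM in the 3-prime set, a log2 ratio of 0.021 (-0.057 to 0.10), Actb 4099 and 3660 CPM, and B2m 1737 and 1620 CPM. Acta2 was the first gene of the 3-prime set and ranked 19 in the full-length set, with a log2 ratio of -1.91 (-1.99 to -1.84). Tyrobp and Lyz2 rested on few wells, with 71.4% and 70.6% of their 3-prime counts in 1 well. Across the 5581 genes with at least 10 CPM in both sets, Spearman's rho between both CPM values was 0.359.

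Of the 3 meningeal lists, 5 members lay in the top 300 of both sets, all of them from the secreted and matrix list. Ptgds (chromosome 2, 25466709 to 25470046, minus strand), the prostaglandin D2 synthase that is also a major protein of the cerebrospinal fluid, ranked 1 in the full-length and 3 in the 3-prime set. It had 11263 counts (15614 CPM) in 67 of 67 full-length wells and 12482 counts (6480 CPM) in 38 of 39 3-prime wells, a log2 ratio of 1.269 (1.232 to 1.306). Title blocks 1 and 2 stood at 15601 and 15626 CPM. Apoe, the lipid carrier made by macrophages, astrocytes and meningeal cells (chromosome 7, 19696109 to 19699188), ranked 25 and 4, with 1537 and 6038 CPM; 58.3% of its 3-prime counts lay in 1 well. Mgp, the matrix Gla protein that inhibits calcification (chromosome 6, 136872435 to 136875823), ranked 10 and 36, with 2136 CPM in 53 wells and 1509 CPM in 32 wells, a log2 ratio of 0.50 (0.41 to 0.59). Itm2b, an integral membrane protein (chromosome 14, 73362226 to 73385289), ranked 56 and 47, with 1054 and 1133 CPM, -0.11 (-0.23 to 0.015). Ogn, the small leucine-rich proteoglycan osteoglycin (chromosome 13, 49608046 to 49624501), was the lowest placed of the 5 in both sets, 83 in the 3-prime set, with 361.8 CPM in 13 wells and 855 CPM in 14 wells. Just outside in the full-length set was the lubricin gene Prg4, 1 place past rank 300, with 442.2 CPM in the full-length and 489.6 CPM in the 3-prime set.

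**Figure D4:**
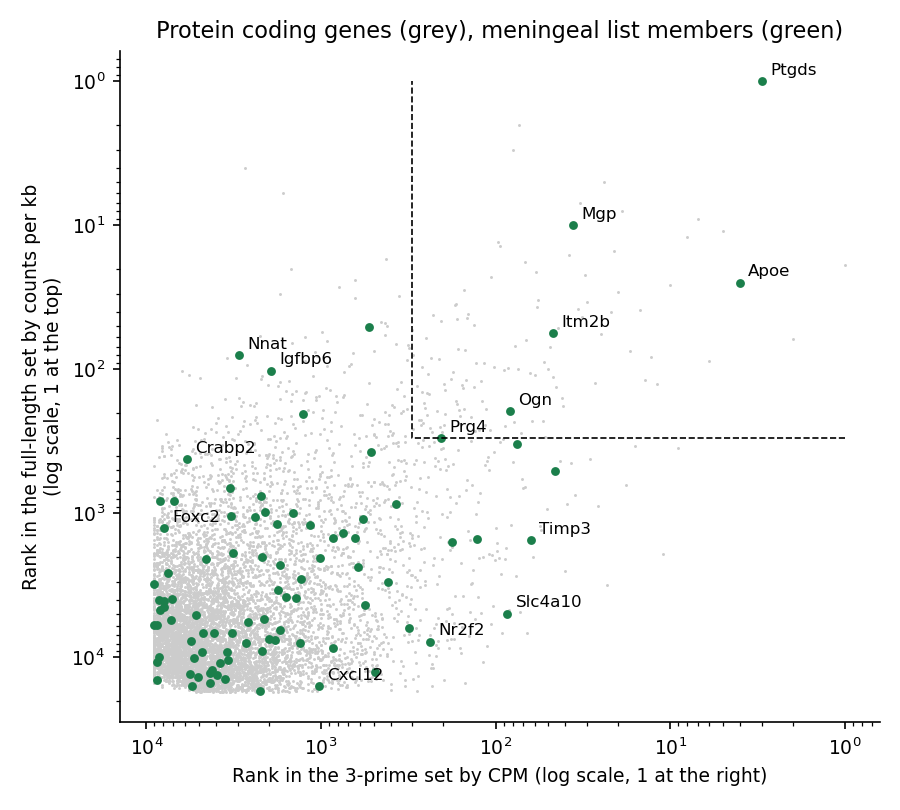
Rank of each protein coding gene by CPM in the 3-prime set (x axis, log scale, rank 1 at the right) and by counts per kb in the full-length set (y axis, log scale, rank 1 at the top); genes counted in both sets with over 20 CPM summed are grey and measured meningeal list members green, and dashed lines mark rank 300. Ptgds, Mgp, Apoe, Itm2b and Ogn lie inside both lines, with Prg4 on the edge.

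Ptgds was also counted in wells that carry macrophage markers. It was counted in 6 of 6 full-length wells and 4 of 4 3-prime wells that had at least 4 of the 8 macrophage markers, at a median of 8029 and 6871 CPM; over all kept wells the medians were 7002 and 3450 CPM. Median nuclear counts of those wells were 6250 and 79210, and over all kept wells 7014 and 27307. Since nearly every kept well had a Ptgds count, the share of wells could not separate these wells from the rest, and no cell type was read from such a count. Ogn was counted in 0 of the 6 full-length and 1 of the 4 3-prime wells of that kind, and in 13 of 67 and 14 of 39 of all.

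Members of the secreted and matrix list lay on both sides. Among the 47 measured genes 8 passed 4-fold on the full-length side and 6 on the 3-prime side, where the all-gene shares were 55.9% and 9.17%, with a median log2 ratio of 0.15 against 3.04. Among the 36 with at least 50 CPM the counts were 3 and 6, where the all-gene shares were 32.5% and 16.3%, and the median was -0.13 against 0.22. At 10 CPM or more without wells whose age field says 3 months the counts were 5 and 10, beside all-gene shares of 51.9% and 14.2%. Scaled to all counts they were 3 and 15, beside 29.1% and 29.8%. On the full-length side Nnat, neuronatin (chromosome 2, 157560078 to 157562522), had 512 CPM in 21 wells against 59.2 CPM in 12 wells, 3.09 (2.805 to 3.43). The laminin chain Lamb1 (38 counts in 9 wells) and the growth factor Bmp6 (20 counts in 2 wells) had 0 counts in the 3-prime wells, at least 33.8-fold and at least 17.8-fold higher. On the 3-prime side the chemokine Cxcl12 (chromosome 6) had 167.7 CPM in 9 wells and 6 counts (8.32 CPM) in 1 full-length well, -4.18 (-5.79 to -3.20), while the posterior and anterior 3-month sets gave 5.69 and 6.91. The metalloprotease inhibitor Timp3 had 1010 CPM in 23 wells and 219.03 CPM in 19 wells, the collagen Col18a1 361.8 and 56.8 CPM, and the IGF carrier Igfbp4 535 and 116.4 CPM. Bmp5 had 160 counts in 3 3-prime wells, 96.9% of them in 1, and 1 full-length count. The fibrillar collagen Col1a2 and the matrix protein Sparc lay close, with 345.2 and 236.2 CPM, and 321.6 and 266.8 CPM. Fold past 4 rested on 1 well for Dcn (36 full-length counts, all in 1 well) and nearly so for Angptl4 (90.6% in 1 well). Their log2 ratios were -1.03 for Dcn in title block 2 alone and -0.91 for Angptl4 in block 1 alone.

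Barrier and transport genes had a median log2 ratio of -0.13 over 28 measured members. Of these, 9 passed 4-fold in the full-length set and 2 in the 3-prime set, where the all-gene shares were 55.9% and 9.17%. Among the 22 with at least 50 CPM the counts were 7 and 2, where the all-gene shares were 32.5% and 16.3%. Their median was also -0.13, where all genes at that level had 0.22. At 10 CPM or more, the 3-prime count was 5 in title blocks 1 and 2 alone, beside 14.4% and 14.8% of all measured genes. It was 6 without wells over 100000 counts, beside 10.9%. The bicarbonate transporter Slc4a10 (chromosome 2, 62046462 to 62326730) had 845 CPM in 12 3-prime wells and 65.2 CPM in 8 full-length wells, -3.68 (-4.15 to -3.28), and the 3-month sets gave 4.57 and 6.09. The cystine exchanger Slc7a11 had all 527 of its 3-prime counts in 1 well. On the full-length side were the lipid transporter Abca8a (100 counts in 11 wells against 0, at least 89.01-fold higher) and the organic anion transporter Slc22a8 (43 counts in 7 wells against 1 count, with a log2 ratio of -0.60 in title block 2 alone). The tight junction gene Cldn11 and E-cadherin, Cdh1, both arachnoid barrier markers, had 84.6 and 55.5 CPM in the full-length set and 7.27 and 3.11 CPM in the 3-prime set. The drug exporter Abcg2 had 176.1 and 86.2 CPM, and the cation exporter Slc47a1 112.3 and 103.8 CPM.

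Patterning and retinoic acid genes, transcription factors of meningeal identity with the enzymes and carriers of retinoic acid, were low in both sets, with 1406 CPM summed over the full-length and 1931 CPM over the 3-prime set. Of 29 measured members, 14 were past 4-fold in the full-length set and 6 in the 3-prime set, beside all-gene shares of 55.9% and 9.17%. The median log2 ratio was 0.86. Among the 13 with at least 50 CPM the counts were 3 and 3, where the all-gene shares were 32.5% and 16.3%. Their median was -0.51, where all genes at that level had 0.22. The retinaldehyde dehydrogenase Aldh1a3 had 41 counts in 6 full-length wells and 3 counts in 1 3-prime well, 4.50 (3.54 to 7.53), and the retinoic acid carrier Crabp2 had 103.97 and 14.5 CPM, 2.76 (2.195 to 3.52), and -0.19 when wells of at least 200 genes are kept. The forkhead factor Foxc2 had 62 counts in 10 wells and 6 counts in 1 well. Its relative Foxc1 had 110.9 CPM in 8 full-length wells and 238.8 CPM in 10 3-prime wells, -1.10 (-1.47 to -0.76). The nuclear receptor Nr2f2 had 437.6 CPM in 15 3-prime wells and 55.5 CPM in 11 full-length wells, -2.96 (-3.48 to -2.52), and the zinc finger factor Zic1 196.2 and 31.9 CPM. Zic1 overlaps Zic4 on the other strand, which had 46.7 and 52.7 CPM.

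**Figure D5:**
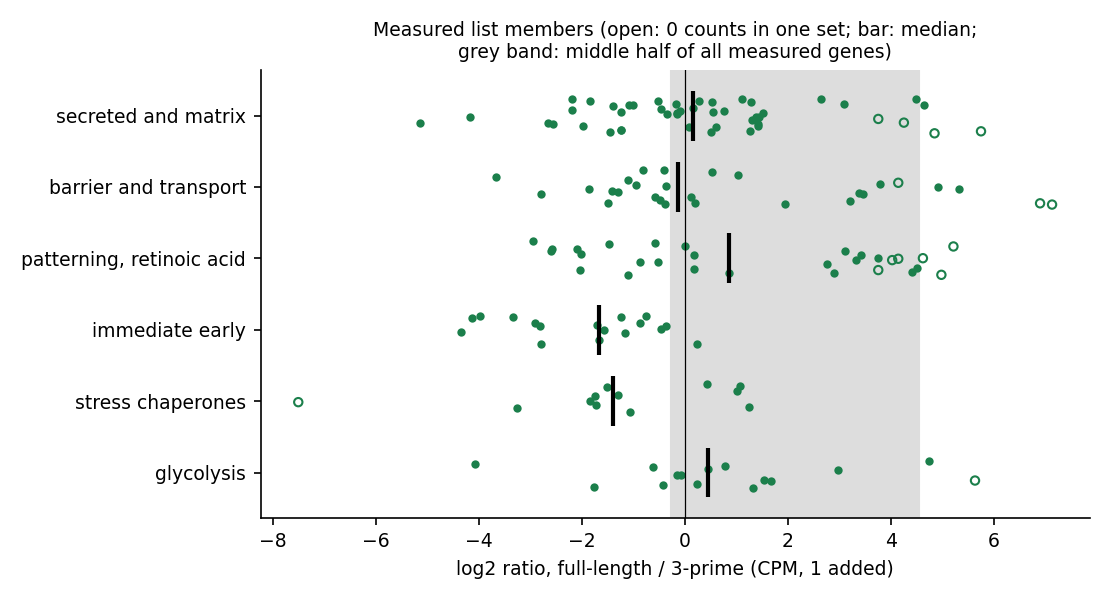
The log2 ratio of full-length over 3-prime (1 CPM added, x axis) for each measured member of 6 gene lists; open points have 0 counts in one set, black bars are list medians and the grey band is the interquartile range of all 16802 measured genes. Medians are -1.66 for immediate early genes, -1.40 for chaperones, -0.13 for barrier and transport, 0.15 for secreted and matrix, 0.45 for glycolysis and 0.86 for patterning and retinoic acid genes.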

How the data were processed

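Counts per gene and well were deposited by the authors as whole numbers, 1 column a well, with the library kind in the column name per the file headers. The submitters' processing notes name STAR 2.7.0a and mm10; the sources used here do not name a counting program, annotation or strand setting. Score values, with a minimum over genes above 0, were deposited by the authors in 11 columns of the series, 1 of them here, which were not used. Gene types, lengths and coordinates come from GENCODE M21 (GRCm38), which matched 37607 of 39179 genes. Wells were summed by set in Python 3.11.15 with pandas 2.3.3 and SciPy 1.17.1; shares have Clopper-Pearson intervals and ratios exact conditional binomial intervals. Genes per well at equal depth are means over all thinnings, taken up after a single draw had been seen. The code was tested on simulated data. Nuclear CPM leaves out mitochondrial genes and the 14 satellite-like genes. Named genes follow the rule given in the text, with 12 genes for each direction, 15 high in both, and listed members by value. The wells, gene lists and comparisons were chosen with earlier results of these data known. Alternatives covered well filters, title blocks, deep wells, scaling, added CPM and fold.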

Additional observations from a re-analysis of the deposited data

Results flagged for a closer look

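Cd47 and Errfi1, both at least 4-fold higher in the 3-prime set at 18 months, lay on the opposite side in 1 or both regions at 3 months. Cd47 had log2 ratios of full-length over 3-prime of 1.232 in posterior and 2.513 in anterior meninges, and Errfi1 had 2.292 in anterior and -2.89 in posterior meninges. Ptgds, 1.269 here, had -4.12 in the anterior 3-month sets. That value rests on 1 full-length count (5.17 CPM, where 3 counts are 15.5 CPM) against 88 3-prime counts. Each of these pairs compares 1 sample a set, and the difference between ages or regions was not tested.

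Wells with fewer than 500 genes, which enter no comparison, also held Ptgds. The 45 such full-length wells had 24866 CPM of Ptgds (1760 counts in 37 wells, where 3 counts are 42.4 CPM). The 14 such 3-prime wells had 26325 CPM (2446 counts in 13 wells, where 3 counts are 32.3 CPM). Their satellite-like shares were 54.5% and 0.0171%.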

How the results depend on the processing

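Limits: each set is 1 sample, a few deep wells hold much of it, and genes near 10 CPM rest on few counts, since 3 counts are 4.16 CPM in the full-length and 1.557 CPM in the 3-prime set. No paired analysis was possible because the replicate numbers are accession-order names and each set is 1 sample. Satellite-like and mitochondrial shares kept their order under every alternative run. The cause of each shift below was not tested.

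The full-length satellite-like share was 64.9% with wells of at least 200 genes, 69.0% with 1000, 63.5% without wells whose age field says 3 months, 57.1% and 71.2% in title blocks 1 and 2, 55.5% without wells over 100000 counts and 51.4% as a mean over wells. The full-length mitochondrial share was 3.38%, 2.511%, 3.33%, 4.10%, 2.564%, 4.14% and 4.48% in that order, and 3.30% without the deepest well. The 3-prime mitochondrial share was 26.1% (200 genes), 23.2% (1000 genes), 23.3% (without the deepest well), 28.4% (without wells over 100000 counts) and 26.4% (mean over wells), and the 3-prime Malat1 share 7.81%, 7.13%, 8.46%, 9.42% and 9.01%.

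Genes at least 4-fold higher numbered 2316 in the 3-prime set with block 2 alone, 3043 (full-length) and 3115 (3-prime) when scaled to all counts, 3563 and 902 with 10 CPM added, and 2109 (full-length) at 50 CPM or more; at 2-fold 2936 were higher in the 3-prime set. Scaled to all counts, the 3-prime side held 14 immediate early genes, 15 secreted, 8 barrier, 8 chaperone, 2 glycolysis, 2 polymerase III and 1 rRNA-overlapping gene, and the full-length side 3 secreted and 3 patterning genes. At 2-fold the 3-prime side held 12, 15, 7, 8, 2, 2 and 1 of the same lists, and the full-length side 17 secreted, 3 chaperone and 6 glycolysis genes. With 10 CPM added the full-length side held 4 secreted and 5 patterning genes and the 3-prime side 2 patterning and 0 polymerase III genes. At 50 CPM or more the full-length side held 2 nuclear long noncoding, 3 secreted and 3 patterning genes and the 3-prime side 3 patterning genes. Without wells whose age field says 3 months there were 5 secreted genes on the full-length side and 10 secreted, 4 chaperone and 3 glycolysis genes on the 3-prime side. Block 1 alone gave 5 barrier genes, and block 2 alone 5 barrier, 4 chaperone, 3 glycolysis, 2 polymerase III and 1 rRNA-overlapping gene on the 3-prime side. Without wells over 100000 counts there were 6 barrier and 0 polymerase III genes on the 3-prime side and 7 glycolysis genes on the full-length side. With 1000 genes there were 3 chaperones on the full-length side and 1 rRNA-overlapping gene on the 3-prime side. Median ratio scaling also gave 1 rRNA-overlapping gene there, and the mean over wells gave 0 polymerase III genes there. Of all measured genes, full-length then 3-prime, 29.1% and 29.8% were past 4-fold scaled to all counts, and 21.2% and 5.37% with 10 CPM added. At 2-fold these shares were 63.3% and 17.5%. At 4-fold and 50 CPM or more they were 32.5% and 16.3%. They were 51.9% and 14.2% by age field, 52.7% and 14.4% in block 1, and 53.6% and 14.8% in block 2. Without wells over 100000 counts they were 56.9% and 10.9%, and with 1000 genes 59.5% and 10.7%.

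Genes per well were 444.5 and 488.2 at 2000 counts and 878.99 and 850.4 at 9000. Spearman's rho with length was 0.030 for the longest transcript, 0.039 for genes measured in both sets and -0.042 without wells over 100000 counts. The top 100 lists shared 42 genes, and with CPM in both sets 9 meningeal genes were shared. Of the single-gene ratios, between 0 (10 CPM added) and 26 (without wells over 100000 counts) changed sign under an alternative. Those past 4-fold that did so were Angptl4 (-1.13 by age field, -0.91 in block 1), Dcn (-1.17 with 1000 genes, -1.03 by age field and in block 2), Ctsk (-1.62, block 1), Slc22a8 (-0.60, block 2), Rarg and Prrx1 (-1.03 each, age field), Crabp2 (-0.19, 200 genes) and Zic5 (1.514, 1000 genes).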

Other observations

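Glycolysis genes, which turn glucose to pyruvate and lactate, had a median log2 ratio of 0.45 over 15 measured members. Of these, 3 were at least 4-fold higher in the full-length set and 1 in the 3-prime set, beside 55.9% and 9.17% of all measured genes. Among the 14 with at least 50 CPM the counts were 2 and 1, where the all-gene shares were 32.5% and 16.3%. The phosphofructokinase genes differed among themselves: Pfkm had 35 counts in 6 full-length wells and 0 in the 3-prime wells, at least 31.2-fold higher, Pfkl had 192.7 and 6.23 CPM, with 84.9% of its full-length counts in 1 well, and Pfkp had 58.2 and 201.4 CPM. Aldoa, an aldolase, lay close, with 400.6 CPM in the full-length set and a log2 ratio of 0.24 (0.036 to 0.44).

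Immunoglobulin and T cell receptor genes had counts for 130 of 482 genes in the full-length set and 6 in the 3-prime set. For protein coding genes in none of the named classes these numbers were 16587 and 9231 of 19723. For long noncoding genes they were 2385 and 220 of 4185. Igkv12-46, a kappa variable segment, had 130 counts in 12 full-length wells and 0 in the 3-prime wells, and the kappa constant gene Igkc had 539.3 CPM in 30 wells and 194.2 CPM in 18 wells. The 6 astrocyte markers summed to 528.2 CPM in the full-length and 202.5 CPM in the 3-prime set, with a count in 30 and 12 wells. Of the 4 measured, 3 lay above 0 and 1 below. Among them Gfap had 212.1 CPM in 8 full-length wells and 0 counts in the 3-prime wells.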
